A study of Homo sapiens with 6 samples.

Results

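The 5 genes of the TAM system, named after its receptors TYRO3, AXL and MERTK, were followed through RNA-seq of a breast cancer line: the 3 receptors and the 2 ligands GAS6 and PROS1. Their values are those of the rows with these gene symbols. All 5 members were found among the 24462 symbols counted, and all 5 passed the filter on low counts. The 6 libraries form 3 groups of 2, all labelled as MDA-MB231 (MDA-MB-231 elsewhere), a triple negative breast cancer line. The first group is labelled ELK3KD-231 +CV, cells with a stable retroviral shRNA knockdown of the ETS-family transcription factor ELK3, taken 48 hours after transfection of the plasmid pLenti-cMyc-DDK (vector-labelled libraries). The second is labelled ELK3KD-231 +ELK3, the same knockdown 48 hours after pLenti-cMyc-DDK-ELK3 (ELK3-labelled libraries). Both received 1 ug of plasmid by lipid transfection. The third holds the control libraries, from cells infected with a control retrovirus, and no plasmid or transfection time is given for it. Whether the knockdown is 1 clone or a pool, and whether the replicates are separate cultures, is not stated, so p-values measure the spread between these libraries, which may be technical.

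TAM receptors are receptor tyrosine kinases that bind phosphatidylserine on dying cells, membrane debris and enveloped viruses, not directly but through a bridging ligand. GAS6 binds all 3 receptors. PROS1, or protein S, binds TYRO3 and MERTK and is also a plasma anticoagulant made largely by the liver. Both ligands need vitamin K-dependent gamma-carboxylation to grip the lipid. Signalling through the receptors promotes survival, migration and engulfment of dead cells, dampens inflammatory signalling, and in natural killer cells restrains killing. AXL is known for high expression in invasive, mesenchymal breast cancer lines.

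The targeted gene did not follow the labels. ELK3 stood at 757 and 695 CPM (counts per 1000000 counts, scaled by TMM) in the vector-labelled libraries, at 20.3 and 22.6 CPM in the ELK3-labelled libraries, and at 128 and 124 CPM in the controls. It was thus highest where a knockdown with an empty plasmid is labelled and lowest where re-expression is labelled. Its log2 fold changes were 2.53 ± 0.09 (SE, adjusted p = 1.6e-22) for vector-labelled over control and -2.54 ± 0.11 (adjusted p = 3.55e-20) for ELK3-labelled over control. The deposited count columns of the vector-labelled libraries are headed KD+E and those of the ELK3-labelled libraries KD. Directions below follow the labels as deposited, and the 2 plasmid groups are called by their label only.

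The cell line label was checked against markers too. Of 16 genes typical of MDA-MB-231 cells, such as VIM and CAV1, all 16 were called lower than in the controls in the vector-labelled libraries and all 16 in the ELK3-labelled libraries. The sum of these 16 lay at 891 to 910 CPM under the vector label, 773 to 813 CPM under the ELK3 label, and 8134 to 8148 CPM in the controls. Of 12 genes typical of the embryonic kidney line HEK293, 10 were tested and all 10 were higher in either plasmid group. All 12 together came to 402 to 410 CPM under the vector label, 878 to 883 CPM under the ELK3 label, and 50.5 to 54.5 CPM in the controls, where PAX2 was at 0. A gene near 0 in 1 group passes the filter on low counts only through a group where it is high. Its call is then partly fixed by the filter, and how many of the 16 and 10 genes passed in this way was not counted. Among all genes tested, 35.3% were called lower and 37.0% higher for vector-labelled over control. For ELK3-labelled over control these shares were 30.8% and 31.8%. In every contrast with the controls below, the labelled knockdown, the plasmid transfection and a possible difference in cells cannot be told apart. Every library also held liver transcripts, with 18 of 18 hepatocyte markers detected in each group. Library totals were 4884483 to 9131214 counts, and 3 counts, the upper limit that a count of 0 allows, stood for 0.318 to 0.644 CPM. Such limits cover counting error only.

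The sequences next to the transcript starts of AXL and GAS6 are shown because these 2 members carried the large changes described further on. RefSeq lists AXL with 2 starts, and reads from transcript ends do not tell which of them was used. Each line gives the 250 bases before a start, 5′ to 3′ on the gene's strand, from RefSeq on GRCh38.p14. Capitals mark matches on either strand to 4 motifs: CCGGAA, the core bound by many ETS factors, TGANTCA of AP-1, GGAATG of TEAD factors and GGGCGG of SP1.
AXL, outer start, chr19:41218973-41219222, plus strand: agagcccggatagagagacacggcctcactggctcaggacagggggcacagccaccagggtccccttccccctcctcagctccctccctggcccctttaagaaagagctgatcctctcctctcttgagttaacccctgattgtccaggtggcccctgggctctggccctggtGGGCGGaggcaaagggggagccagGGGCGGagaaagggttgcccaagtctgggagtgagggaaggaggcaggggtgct
AXL, inner start, chr19:41226505-41226754, plus strand: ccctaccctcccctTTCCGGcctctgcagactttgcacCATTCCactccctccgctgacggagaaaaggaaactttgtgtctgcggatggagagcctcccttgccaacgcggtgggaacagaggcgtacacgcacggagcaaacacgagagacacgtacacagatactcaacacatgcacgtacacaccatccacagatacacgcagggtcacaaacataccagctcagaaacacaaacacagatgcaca
GAS6, chr13:113864077-113864326, minus strand: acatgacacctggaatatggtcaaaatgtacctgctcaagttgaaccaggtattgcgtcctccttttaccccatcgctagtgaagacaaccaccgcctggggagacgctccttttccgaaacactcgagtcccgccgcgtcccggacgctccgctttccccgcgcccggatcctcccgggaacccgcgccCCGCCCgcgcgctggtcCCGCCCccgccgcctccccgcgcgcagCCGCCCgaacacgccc

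The window at the outer AXL start held 2 matches to the SP1 motif, 78 and 54 bases before the start, and no match to the other 3 motifs. The window at the inner start, inside the gene, held 1 ETS match and 1 TEAD match, at positions -236 and -212 from it, which do not overlap. The GAS6 window held 3 SP1 matches. Of the other 4 windows of members, 1 at TYRO3 held a match to TGANTCA, where N stands for any base, and it read TGAATCA. None of these 4 windows held the ETS or TEAD motif. No AXL or GAS6 window held the AP-1 motif. Among the 250-base windows of all 35116 starts in the table, 14.5% held the ETS motif, 6.57% the AP-1 motif, 11.9% the TEAD motif and 42.6% the SP1 motif. CG dinucleotides numbered 4 in the window at the outer AXL start, 13 at the inner start and 31 at GAS6. A match of letters shows no binding, and none of these data measure it.

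AXL, a receptor that binds GAS6, is annotated on the plus strand of chromosome 19, at 41219203 to 41261766 (GENCODE 29, GRCh38). It had 14.8 and 12.0 CPM in the vector-labelled libraries, 10.5 and 11.6 CPM in the ELK3-labelled libraries, and 623 and 586 CPM in the controls. The counts behind these were 101 and 60, 66 and 109, and 2986 and 2730. Each plasmid library lay far below either control. Group means were 13.4 ± 2.0 CPM in the vector-labelled libraries, 11.02 ± 0.77 CPM in the ELK3-labelled libraries and 604 ± 26.4 CPM in the controls (SD, n = 2 each).

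For vector-labelled over control, AXL fell by 5.48 on the log2 scale (SE 0.12, adjusted p = 3.44e-28), a 44.5-fold lower level. Both contrasts with the controls share the same 2 control libraries. For ELK3-labelled over control the log2 fold change was -5.76 ± 0.12 (adjusted p = 5.99e-29), 54.3-fold lower. In these comparisons 35.3% and 30.8% of the 15386 genes tested were called lower at an adjusted p under 0.05. Over all genes tested AXL had the 19th lowest log2 fold change in the vector-labelled libraries and the 41st lowest in the ELK3-labelled libraries. Among the 2434 genes with at least 100 CPM in the controls, a filter on the group where it is high, it ranked 5th and 6th.

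Between the plasmid groups AXL was not called, while ELK3 was 33.6-fold lower in the ELK3-labelled libraries. Of all genes tested, 59.6% were called between these groups. Their summed HEK293 markers differed too, at 402 to 410 CPM under the vector label and 878 to 883 CPM under the ELK3 label. In this comparison as well, the plasmid and a possible difference in cells cannot be told apart. AXL's log2 fold change for ELK3-labelled over vector-labelled was -0.29, with a 95% interval from -0.62 to 0.05 (adjusted p = 0.131). That interval includes no change and does not show that the levels are the same. Both ELK3-labelled values lay just below both vector-labelled values, which with 2 libraries a group can arise by chance.

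**Figure D1:**
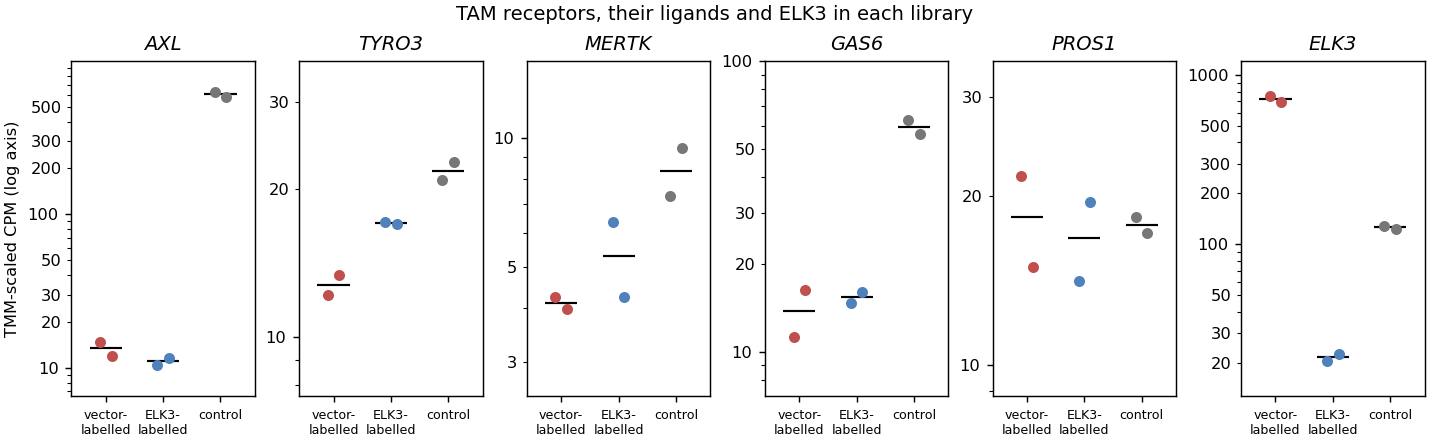
Level of each member and of ELK3 in each library, as TMM-scaled CPM on a log axis with its own range per gene; points are libraries and bars the mean of 2. AXL stood at 623 and 586 CPM in the controls and at 10.5 to 14.8 CPM in the 4 plasmid libraries, whereas PROS1 overlapped in all groups.

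TYRO3, the receptor best known from the nervous system, is annotated on the plus strand of chromosome 15, at 41557675 to 41583586. It stood at 12.2 and 13.4 CPM in the vector-labelled libraries, 17.1 and 17.0 CPM in the ELK3-labelled libraries, and 20.9 and 22.7 CPM in the controls. The groups did not overlap and were ordered with the vector-labelled libraries lowest and the controls highest. With 2 libraries a group such separation can arise by chance, and the share of all genes showing it was not counted. TYRO3 was 1.71-fold lower in the vector-labelled libraries than in the controls (log2 fold change -0.78 ± 0.18, adjusted p = 0.000302). For ELK3-labelled over control the log2 fold change of -0.35 ± 0.17 missed the threshold (adjusted p = 0.0655, 95% interval -0.69 to -0.01).

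TYRO3 was the only member called between the plasmid groups, a comparison in which 59.6% of all genes were called, 30.0% higher and 29.6% lower. Its log2 fold change for ELK3-labelled over vector-labelled was 0.42 ± 0.18 (adjusted p = 0.0384). The call ended when vector-labelled replicate 1 (adjusted p = 0.209), vector-labelled replicate 2 (0.0569), ELK3-labelled replicate 1 (0.0902) or ELK3-labelled replicate 2 (0.105) was left out, with DESeq2 (0.167), and among genes with at least 10 CPM in 2 libraries (0.0715). The processed pseudogene TYRO3P was listed with 0 counts in every library.

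MERTK, the receptor used by macrophages and retinal pigment cells to engulf dead cells and shed membrane, is annotated on the plus strand of chromosome 2, at 111898479 to 112029561. It was the lowest of the 5 members, with 4.25 and 3.99 CPM in the vector-labelled libraries, 6.35 and 4.24 CPM in the ELK3-labelled libraries, and 7.3 and 9.44 CPM in the controls. All plasmid libraries lay below both controls, on 20 to 40 counts each. The log2 fold change for vector-labelled over control was -1.01 ± 0.31 (adjusted p = 0.00401).

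For ELK3-labelled over control MERTK had a log2 fold change of -0.70 ± 0.28 (adjusted p = 0.0327). This call ended without control replicate 2 (adjusted p = 0.239), without ELK3-labelled replicate 2 (0.332), with DESeq2 (0.164) and with library totals as the only scaling (0.102). Between the plasmid groups MERTK overlapped, with a log2 fold change of 0.32 (95% interval -0.32 to 0.95, adjusted p = 0.39). Macrophage markers, which mark one known source of MERTK, were present in all libraries with 14 of 14 detected per group. Their sum lay at 192 to 202 CPM under the vector label, 152 to 155 CPM under the ELK3 label, and 193 to 197 CPM in the controls. Of the 4 most abundant of these markers, LAPTM5 averaged 12.3, 10.2 and 23.5 CPM in the vector-labelled, ELK3-labelled and control libraries, with log2 fold changes over the controls of -0.92 and -1.22 (adjusted p = 5.06e-05 and 8.1e-07). CD14 averaged 49.0, 36.1 and 50.6 CPM in that order and was called lower for ELK3-labelled over control (-0.48 ± 0.12, adjusted p = 0.000813). TYROBP and C1QA were not called against the controls. Among all genes tested, 35.3% were lower and 37.0% higher for vector-labelled over control, and 30.8% and 31.8% for ELK3-labelled over control. Of the 14 macrophage markers, 1 was lower, 1 higher and 12 not called in the first comparison (median log2 fold change 0.09). In the second, 2 were lower and 12 not called (median -0.28). The part of such RNA in the MERTK values was not tested, and in bulk libraries fewer cells of a type and less RNA per cell cannot be told apart.

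**Figure D2:**
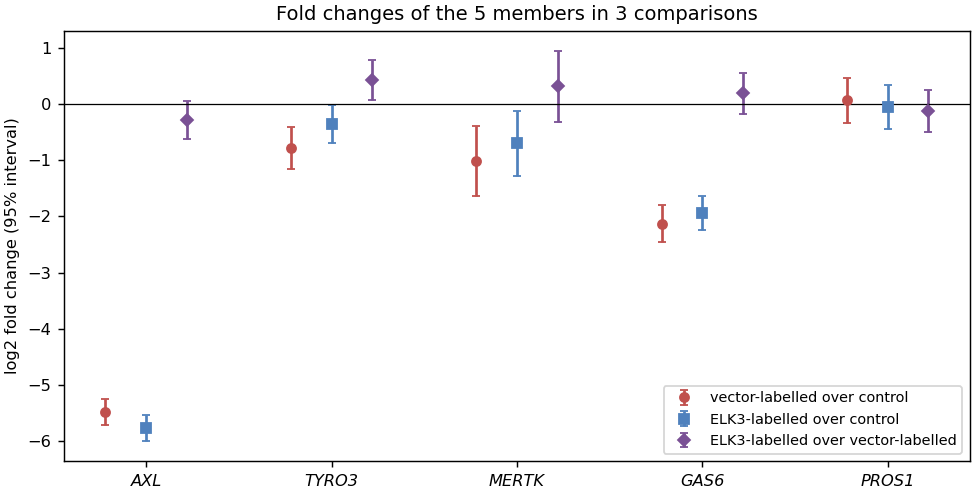
Log2 fold change of each member in the 3 comparisons, first group over second as named in the legend, with 95% intervals from the quasi-likelihood fit. AXL and GAS6 lay far below 0 in both comparisons with the controls, at -5.48 and -5.76 for AXL and -2.13 and -1.94 for GAS6, and the intervals of PROS1 crossed 0 in all 3.

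The balance among the receptor transcripts differed between the groups. AXL made up 47.4% and 40.8% of the counts of the 3 receptors in the vector-labelled libraries, 30.8% and 35.3% in the ELK3-labelled libraries, and 95.7% and 94.8% in the controls. The intervals cover counting error only, and counts within groups spread beyond it. The lowest and highest bounds of the exact Clopper-Pearson 95% intervals were 24.7% and 54.4% over the plasmid libraries and 93.9% and 96.4% over the controls. TYRO3 made up 39.0% and 45.6% in the vector-labelled libraries, 50.5% and 51.8% in the ELK3-labelled libraries, and 3.2% and 3.68% in the controls. MERTK's share was 13.6% in both vector-labelled libraries, 18.7% and 12.9% in the ELK3-labelled libraries, and 1.12% and 1.53% in the controls. These shares come from reads at transcript ends, which do not scale with transcript length. TYRO3 and MERTK took higher shares in every plasmid library than in either control, while neither was called higher than in the controls. Summed, the 3 receptors stood at 30.3 ± 1.32 CPM in the vector-labelled libraries, 33.4 ± 0.83 CPM in the ELK3-labelled libraries and 634 ± 23.5 CPM in the controls (SD, n = 2 each).

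**Figure D3:**
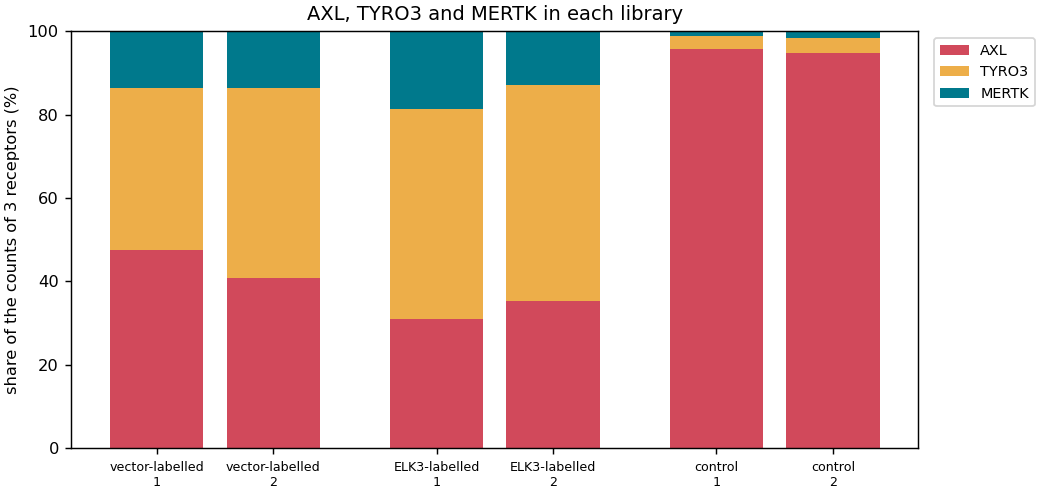
Share of AXL, TYRO3 and MERTK in the counts of the 3 receptors, 1 bar per library. AXL took 30.8% to 47.4% in the plasmid libraries and 94.8% to 95.7% in the controls.

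GAS6, the ligand common to the 3 receptors, is annotated on the minus strand of chromosome 13, at 113820549 to 113864067. It stood at 11.3 and 16.4 CPM in the vector-labelled libraries, 14.8 and 16.0 CPM in the ELK3-labelled libraries, and 62.6 and 56.2 CPM in the controls. The plasmid groups overlapped with each other and lay well below the controls. GAS6 was 4.38-fold lower for vector-labelled over control (log2 fold change -2.13 ± 0.16, adjusted p = 9.18e-14) and 3.84-fold lower for ELK3-labelled over control (-1.94 ± 0.15, adjusted p = 3.03e-13). Between the plasmid groups its log2 fold change was 0.19 (95% interval -0.18 to 0.56, adjusted p = 0.371), and -0.08 without vector-labelled replicate 1.

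A long non-coding RNA listed as GAS6-AS2, a synonym of GAS6-DT in RefSeq, starts 101 bases from the GAS6 start on the opposite strand and does not overlap GAS6. Its GENCODE 29 position is chromosome 13 from 113864168 to 113866833. It had 1 count in either vector-labelled library, 1 and 7 counts in the ELK3-labelled libraries, and 28 and 24 counts in the controls. The control level was 32.5 times the vector-labelled level (95% counting interval 8.57 to 276) and 10.8 times the ELK3-labelled level (5.1 to 26.4). GAS6-AS2 passed the filter on low counts only through the controls, the group where it is high. A call of lower against them therefore adds nothing to its counts and is not given. GAS6-AS1, which overlaps GAS6 on the other strand over 25196 bases, had 8 counts in all 6 libraries together. Whether reads were counted by strand is not stated, so reads of GAS6 and GAS6-AS1 cannot be told apart with certainty.

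PROS1 is annotated on the minus strand of chromosome 3, at 93873033 to 93980003. It was the member that changed least, with 21.7 and 15.0 CPM in the vector-labelled libraries, 14.1 and 19.5 CPM in the ELK3-labelled libraries, and 18.4 and 17.2 CPM in the controls. The controls lay inside the range of either plasmid group. Log2 fold changes were 0.07 for vector-labelled over control (95% interval -0.33 to 0.47, adjusted p = 0.764) and -0.05 for ELK3-labelled over control (-0.45 to 0.34, adjusted p = 0.823). For ELK3-labelled over vector-labelled the value was -0.12 (-0.50 to 0.25, adjusted p = 0.585). With 2 libraries a group, changes inside these intervals were not excluded. Its sign was not stable: the value for vector-labelled over control was -0.25 without vector-labelled replicate 1, and that for ELK3-labelled over control was 0.14 without ELK3-labelled replicate 1 and 0.10 with library totals as the only scaling.

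Liver transcripts stood beside PROS1 in each group. The 18 hepatocyte markers together came to 14529 to 15622 CPM under the vector label, 11752 to 12340 CPM under the ELK3 label, and 14424 to 14881 CPM in the controls. Albumin (ALB) averaged 3843, 3081 and 3763 CPM in the vector-labelled, ELK3-labelled and control libraries. F2, the gene of prothrombin and like PROS1 a vitamin K-dependent product of the liver, averaged 309 ± 9.46 CPM, 253 ± 8.35 CPM and 295 ± 11.2 CPM in the same order (SD, n = 2 each). The part of liver RNA in the PROS1 values was not tested. PROS1 has an unprocessed pseudogene, PROS2P, on the same chromosome, which was not analysed here, and how reads shared by both were counted is not stated.

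Together the ligands stood at 32.2 ± 1.15 CPM in the vector-labelled libraries, 32.2 ± 4.71 CPM in the ELK3-labelled libraries and 77.2 ± 5.36 CPM in the controls. Against the controls, 4 of the 5 members were called in the vector-labelled libraries and 3 in the ELK3-labelled libraries, and each of these was lower. Over all genes tested, 72.3% and 62.6% were called in these comparisons, 37.0% and 31.8% higher. Calls were thus common among all genes, and the counts of members are read only with the size of each change.

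AXL was also set beside the other receptor tyrosine kinases. By mean level it ranked 22nd of 58 such genes in the vector-labelled libraries and 23rd in the ELK3-labelled libraries, and 1st in the controls. It made up 1.55% of their summed CPM in the vector-labelled libraries, 1.22% in the ELK3-labelled libraries and 37.4% in the controls. TYRO3 ranked 23rd, 20th and 14th, and MERTK 35th, 31st and 17th, in the vector-labelled, ELK3-labelled and control libraries. Among the 45 of these kinases that were tested, AXL had the lowest log2 fold change in both comparisons with the controls.

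The next 3 kinases by level in the controls, EGFR, MET and EPHA2, were lower as well, by less. EGFR, the epidermal growth factor receptor, averaged 22.5 ± 0.59 CPM in the vector-labelled libraries, 30.6 ± 0.95 CPM in the ELK3-labelled libraries and 161 ± 3.56 CPM in the controls. EPHA2, an ephrin receptor, averaged 14.6 ± 0.9, 19.1 ± 4.64 and 114 ± 1.04 CPM in that order. MET, the receptor of hepatocyte growth factor, averaged 61.8 ± 11.1, 46.5 ± 0.28 and 148.6 ± 1.41 CPM. Kinases further down did not share one direction. The insulin receptor gene INSR averaged 63.2 ± 1.0, 62.4 ± 1.71 and 74.2 ± 3.92 CPM in that order. FGFR1, a fibroblast growth factor receptor gene, averaged 50.5 ± 1.12, 96.5 ± 1.04 and 70.5 ± 4.14 CPM, lower for vector-labelled over control (log2 fold change -0.48 ± 0.11, adjusted p = 0.000177) and higher for ELK3-labelled over control (0.45 ± 0.10, adjusted p = 0.000175). The ephrin receptor gene EPHB2 averaged 70.2 ± 11.9, 19.0 ± 1.57 and 62.1 ± 8.65 CPM. Kinases higher than in the controls in either plasmid group included the VEGF receptor genes FLT1, at 38.9 ± 6.39, 78.4 ± 5.78 and 7.2 ± 1.34 CPM, and FLT4, at 16.4 ± 1.11, 26.2 ± 0.62 and 1.59 ± 0.12 CPM. EPHA4 averaged 25.9 ± 0.6, 17.8 ± 1.31 and 1.9 ± 0.04 CPM. IGF1R, the insulin-like growth factor receptor, had the highest mean of all 58 in the vector-labelled libraries (91.1 ± 0.75 CPM) and FGFR1 in the ELK3-labelled libraries. Of the 42 other kinases tested, 21 were higher and 12 lower for vector-labelled over control, with a median log2 fold change of 0.98 against 0.05 over all genes, of which 37.0% were higher and 35.3% lower. For ELK3-labelled over control 23 were higher and 11 lower (median 0.78 against 0.02 over all genes, of which 31.8% were higher and 30.8% lower). Kinases such as FLT4 and EPHA4 passed the filter on low counts only through the plasmid libraries, where they are high. The counts of higher kinases and both medians are therefore partly fixed by the filter. Among genes with at least 10 CPM in 2 libraries the higher counts were 12 and 14. Fewer genes were tested there, the number of kinases among them is not given, and the cause of the drop was not tested.

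**Figure D4:**
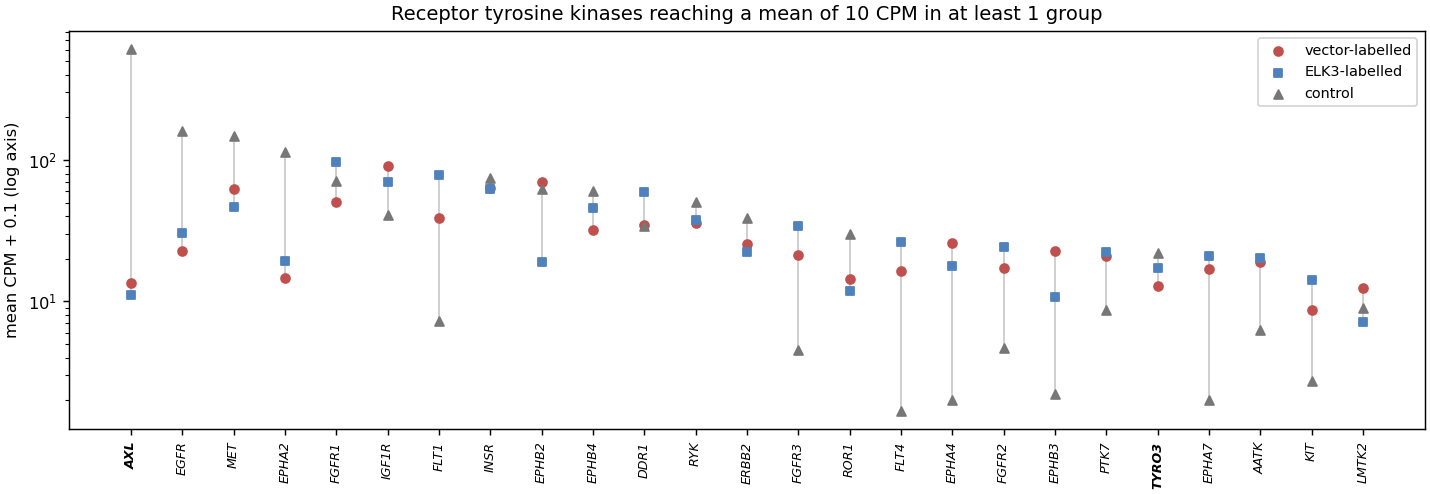
Mean CPM plus 0.1, on a log axis, of the 25 receptor tyrosine kinases that reached 10 CPM in at least 1 group, ordered by their highest mean; lines join the 3 group means of a gene. AXL spans the widest range, from 11.02 CPM in the ELK3-labelled libraries and 13.4 CPM in the vector-labelled libraries to 604 CPM in the controls.

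Genes downstream of the receptors were called lower more often than higher against the controls. Of 30 adaptors and effectors, 20 were lower and 4 higher for vector-labelled over control (median log2 fold change -0.79, against 0.05 over all genes, of which 35.3% were lower and 37.0% higher). For ELK3-labelled over control 15 were lower, 4 higher and 11 not called (median -0.44, against 0.02 over all genes, of which 30.8% were lower and 31.8% higher). The count of 4 became 2 without control replicate 2 and with DESeq2, and 7 with library totals. RAC1, the GTPase that drives membrane ruffling during engulfment, averaged 256 ± 4.78 CPM in the vector-labelled libraries, 490 ± 18.3 CPM in the ELK3-labelled libraries and 1052 ± 55.8 CPM in the controls. The survival kinase gene AKT1 averaged 31.4 ± 0.23, 52.5 ± 8.73 and 101 ± 4.44 CPM in that order. The ubiquitin ligase gene CBL averaged 74.2 ± 9.99, 103.8 ± 2.24 and 165 ± 12.8 CPM.

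Several of these genes also differed between the plasmid groups. For ELK3-labelled over vector-labelled 17 of 30 were higher and 2 lower (median 0.38, against -0.02 over all genes, of which 30.0% were higher and 29.6% lower). RAC1 rose by 0.94 ± 0.08, AKT1 by 0.73 ± 0.12, and PIK3R2, a regulatory subunit of PI3-kinase, by 1.09 ± 0.15 (largest adjusted p of the 3, 4.96e-06). The adaptor gene SHC1 had 0.14 ± 0.11 (adjusted p = 0.27).

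Ectodomain shedding releases soluble AXL and MERTK from the cell surface. Of 10 genes of this process, 8 were lower and 2 higher for vector-labelled over control (median -1.07), and 6 were lower and the other 4 not called for ELK3-labelled over control (median -0.53). Over all genes 35.3% and 30.8% were lower in these comparisons, 37.0% and 31.8% higher, with medians of 0.05 and 0.02. ADAM10, a sheddase, averaged 21.5 ± 0.23 CPM in the vector-labelled libraries, 31.4 ± 1.34 CPM in the ELK3-labelled libraries and 101.8 ± 0.81 CPM in the controls. ADAM17, the second sheddase, averaged 12.6 ± 1.31, 25.0 ± 0.09 and 70.5 ± 3.25 CPM in that order. For ELK3-labelled over vector-labelled, ADAM17 rose by 0.99 ± 0.16 (adjusted p = 1.59e-06) and 7 of the 10 genes were higher and 3 lower. Among all genes tested, 30.0% were higher and 29.6% lower in that comparison. APH1A, a subunit of gamma-secretase, was lower in the vector-labelled libraries (-1.06 ± 0.10, adjusted p = 1.63e-10), and its value for ELK3-labelled over control was 0.11 ± 0.10 (adjusted p = 0.318).

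Ligand maturation depends on the vitamin K cycle. Of 8 genes, 7 were lower and 1 higher for vector-labelled over control (median -0.99), and 5 were lower and the other 3 not called for ELK3-labelled over control (median -0.75), beside 35.3% and 30.8% of all genes lower. The quinone reductase gene NQO1 was lowest, with 11.7 ± 0.7 CPM in the vector-labelled libraries, 13.5 ± 0.65 CPM in the ELK3-labelled libraries and 163 ± 1.87 CPM in the controls. VKORC1L1, a vitamin K epoxide reductase, averaged 36.7 ± 0.28, 49.3 ± 6.57 and 96.4 ± 8.63 CPM in that order. CALU, which inhibits the carboxylase, averaged 249 ± 11.5, 302 ± 16.2 and 541 ± 9.67 CPM. Among all genes tested, 37.0% were higher and 35.3% lower for vector-labelled over control, and 31.8% and 30.8% for ELK3-labelled over control. Of 10 other carboxylated proteins tested, 2 were higher and 1 lower for vector-labelled over control, and as many for ELK3-labelled over control. For ELK3-labelled over control the 2 became 1 without control replicate 1, without ELK3-labelled replicate 2 and with DESeq2. PRRG4, a membrane protein with a Gla domain, averaged 48.4 ± 4.4, 48.8 ± 2.57 and 9.71 ± 1.6 CPM.

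The lipid signal and its other readers were mixed. Of 11 genes that move phosphatidylserine between membrane leaflets, 7 were lower and 3 higher for vector-labelled over control (median -0.56), and 4 were lower and 3 higher for ELK3-labelled over control (median -0.27). The counts for ELK3-labelled over control lay near the shares of all genes, 30.8% lower and 31.8% higher; for vector-labelled over control those were 35.3% and 37.0%. TMEM30A, the partner subunit of the flippases, averaged 60.5 ± 3.97 CPM in the vector-labelled libraries, 95.4 ± 6.21 CPM in the ELK3-labelled libraries and 125.5 ± 5.46 CPM in the controls. XKR8, a scramblase activated by caspases, rose by 1.13 ± 0.18 for ELK3-labelled over vector-labelled (adjusted p = 1.83e-06).

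Of 12 tested genes for other phosphatidylserine receptors and bridging proteins, 5 were lower and 3 higher for vector-labelled over control (median -0.07), and 4 were lower and 1 higher for ELK3-labelled over control (median -0.18). Of all genes 35.3% were lower and 37.0% higher in the first comparison, 30.8% and 31.8% in the second, so the lower counts were near the background. The single higher gene became 2 without control replicate 1, with library totals and with no filter. The integrin gene ITGB5, whose product pairs with alpha v in a receptor for the bridge MFGE8, averaged 41.1 ± 9.04 CPM in the vector-labelled libraries, 48.9 ± 7.48 CPM in the ELK3-labelled libraries and 174 ± 0.61 CPM in the controls. Its partner ITGAV averaged 19.3 ± 0.23, 26.9 ± 1.44 and 44.9 ± 4.18 CPM in that order. TUB, a proposed bridge for MERTK, averaged 29.8 ± 0.6, 22.4 ± 2.05 and 3.37 ± 1.43 CPM, and LGALS3, a galectin reported to bind MERTK, 20.4 ± 0.0059, 18.2 ± 0.82 and 37.5 ± 1.2 CPM. CD300LB, an immune receptor gene, had 87 counts over the vector-labelled libraries, 3 over the ELK3-labelled libraries and 2 over the controls. The vector-labelled level was 38.5 times the ELK3-labelled level (95% counting interval 12.8 to 191). CD300LB passed the filter on low counts only through the vector-labelled libraries, the group where it is high. It is among the 3 genes called higher for vector-labelled over control, and that call adds nothing to its counts.

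Of 24 transcription factors reported to act at AXL, 12 were lower and 8 higher for vector-labelled over control (median -0.33), and 11 were lower and 5 higher for ELK3-labelled over control (median -0.21). Of all genes 35.3% were lower and 37.0% higher in the first comparison, and 30.8% and 31.8% in the second. FOSL1, an AP-1 subunit, averaged 4.89 ± 0.14 CPM in the vector-labelled libraries, 7.23 ± 1.03 CPM in the ELK3-labelled libraries and 190 ± 3.15 CPM in the controls, with log2 fold changes over the controls of -5.27 ± 0.15 and -4.69 ± 0.13. YAP1, the coactivator of TEAD factors, averaged 28.2 ± 3.36, 50.9 ± 1.81 and 111 ± 7.98 CPM in that order, and TEAD3 5.92 ± 0.75, 15.5 ± 2.74 and 48.1 ± 4.84 CPM. HIF1A, the oxygen-regulated factor, averaged 84.3 ± 4.66, 49.4 ± 0.33 and 186 ± 13.1 CPM. SNAI1, a repressor of epithelial genes, averaged 39.3 ± 3.14, 7.55 ± 1.22 and 3.19 ± 1.26 CPM, and MITF, the melanocyte lineage factor, 106.8 ± 2.84, 23.4 ± 1.26 and 25.8 ± 3.2 CPM. Both of these were higher in the vector-labelled libraries than in either other group.

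**Figure D5:**
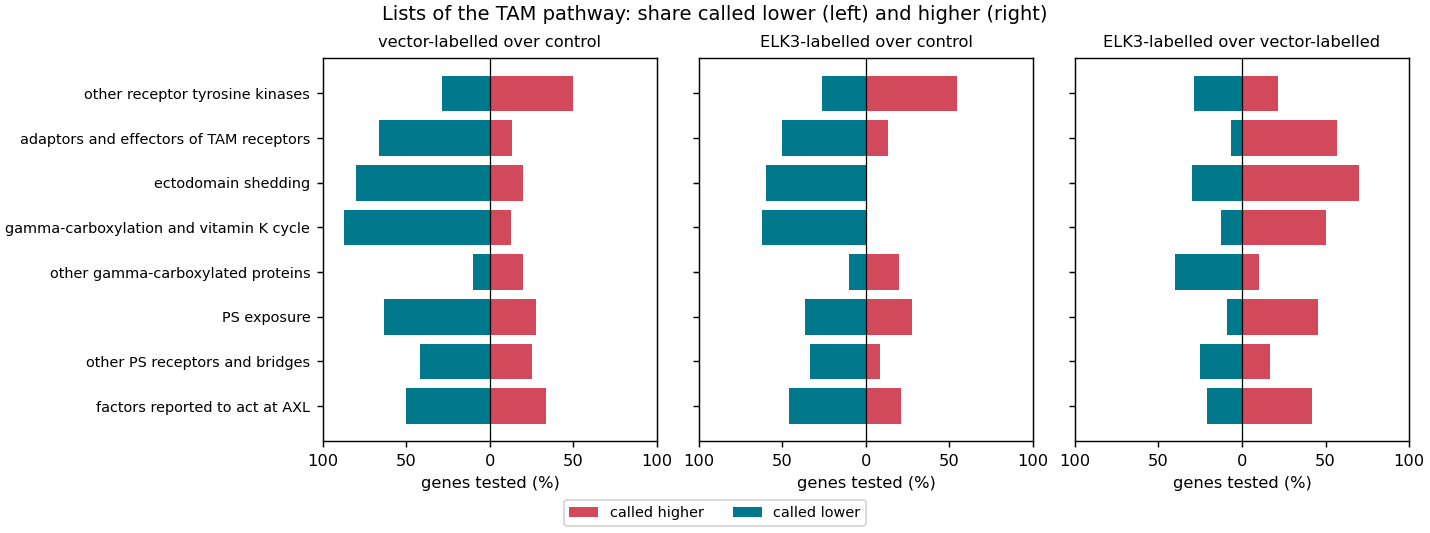
Share of tested genes in each list of the TAM pathway called lower (bars to the left) and higher (bars to the right) at an adjusted p under 0.05, in the 3 comparisons; PS stands for phosphatidylserine. Adaptors and effectors were mostly lower for vector-labelled over control (20 of 30) and mostly higher for ELK3-labelled over vector-labelled (17 of 30). Among all genes tested, 35.3% were lower for vector-labelled over control and 30.0% higher for ELK3-labelled over vector-labelled.

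The genes with the profile nearest to each member were found by the root mean square distance between log2 CPM profiles over the 6 libraries, each centred on its mean. For AXL, among 10431 candidates, these included PLAU, the urokinase gene (0.11 log2 units), the surface glycoprotein gene CDCP1 (0.16), the transporter gene SLC43A3 (0.18) and PAX8-AS1 (0.19). PLAU averaged 8.24, 7.97 and 426 CPM and CDCP1 8.4, 6.86 and 329 CPM in the vector-labelled, ELK3-labelled and control libraries. For GAS6 the nearest were GTPBP2 (0.08), the NF-kappaB subunit gene NFKB2 (0.08), ITGB5 (0.09), the ubiquitin ligase gene NEDD4 (0.09) and S100A11 (0.11). For TYRO3 they included RPE, UBE2E1, DCUN1D1 and RNF213 (0.04 to 0.05). For MERTK they were MEMO1, TTC7A, SRI, SNX7 and MTCL1 (0.08 to 0.12). The genes nearest to PROS1 were KLRC4-KLRK1, NCKAP1L, ZNF302, SEPT7P2 and C4orf32 (0.1 to 0.12). Such likeness describes 6 libraries in 3 groups.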

How the data were processed

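RNA-seq was measured in 6 libraries, 2 per group, from a Lexogen Quant-Seq kit that reads transcript ends. The authors deposited raw counts per gene symbol. Bowtie2, edgeR and hg19 are named in the submitters' processing notes, without versions. The counting tool, annotation and filters are not given in the sources used here. Where a symbol stood on several lines (286 symbols, 1561 lines), its counts were added up, which touched no member. Within groups, counts spread beyond counting error (chi-square per degree of freedom 2.21 to 3.02).

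Counts were analysed with R 4.3.3 and edgeR 4.0.16. The 15386 genes passing filterByExpr were TMM-scaled, and all 6 libraries entered 1 quasi-likelihood fit with robust dispersions and 3 group means (3 residual degrees of freedom). The p-values are two-sided and Benjamini-Hochberg adjusted over all genes per comparison, with a threshold of 0.05. Intervals are 95% from the fit. Replicate numbers were not treated as pairs. The fit was tested on simulated data.

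Alternatives were a replicate block, DESeq2 1.42.0, its size factors, library totals, limma-voom (limma 3.58.1), no filter, 10 CPM in 2 libraries, a fit of the 4 libraries in question alone, and leaving out 1 library at a time, where a lone library is assumed to vary like the other groups. Motif and share counts used Python 3.11.15. The members and lists were chosen with earlier results of these data known. Named were the 5 members, ELK3 and their neighbour genes, from each list up to 6 genes by smallest adjusted p in any comparison, the 5 most abundant receptor kinases per group, the 5 nearest profiles per member, and the most abundant cell markers. PAX2 was named besides, after its values were seen. GENCODE 29 positions are on GRCh38. Some genes that this rule names are not reported here.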

Additional observations from a re-analysis of the deposited data

How the results depend on the processing

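AXL and GAS6 kept their direction and their call against the controls under all 14 alternatives, as did TYRO3 for vector-labelled over control; MERTK did so under 13, as it did not pass the filter of 10 CPM. AXL ranged from -5.66 to -5.34 for vector-labelled over control and from -5.85 to -5.61 for ELK3-labelled over control, and GAS6 from -2.41 to -1.86 and from -2.02 to -1.78. PROS1 was called under none of them. The MERTK log2 fold change for ELK3-labelled over control lost its call with library totals (-0.54) and DESeq2 (-0.68), and ranged from -0.97 to -0.40 with 1 library left out. That of TYRO3 for ELK3-labelled over vector-labelled lost its call with the filter of 10 CPM (0.36) and with DESeq2 (0.42), and ranged from 0.36 to 0.50 with 1 library left out. The causes were not tested. Library totals moved the median of all genes to 0.18 for vector-labelled over control, against 0.05 with TMM, and to 0.18 against 0.02 for ELK3-labelled over control; of the members, PROS1 alone changed sign there (ELK3-labelled over control, uncalled). A replicate block changed no member's call (AXL -5.48 and -5.76, TYRO3 0.42 between the plasmid groups with an adjusted p = 0.0495). Deviations of same-numbered libraries correlated at -0.056 to 0.033. These deviations include counting error, so the low correlation does not exclude that same-numbered libraries were paired. Counts called over all genes stayed within 1.5 times of those reported in all 84 cases, and list counts in 626 of 672. Depth limits MERTK, with 20 to 44 counts per library, GAS6-AS2, with 1 to 28, GAS6-AS1, with 8 counts in all, and CD300LB, with 3 and 2 counts over the ELK3-labelled and control libraries.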
